A study of Mus musculus with 6 samples.

Results

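The genes described here are those whose transcripts, as assembled from these libraries, began at 2 well separated places that were both expressed. A gene entered when 2 of its isoforms each averaged 2 FPKM or more across the 6 libraries, lay on 1 chromosome and strand, had 5′ ends more than 1000 bases apart and had first exons that did not overlap. FPKM, the authors' unit, is a fragment count scaled for the length of a transcript and the size of its library. Members were thus selected on measured levels averaged over both groups, and the difference between the groups was not used. A start under 2 FPKM in 1 group could therefore enter through its level in the other group. By this rule 3316 of the 17022 gene names in the table were members, out of 4990 names with 2 or more isoforms of at least 2 FPKM. For each gene the start lying further 5′ on its strand is called the upstream promoter and the other the downstream promoter. A promoter's level is the summed FPKM of its isoforms, and the upstream share is the upstream level as a percent of both. These are inferred starts: no assay of transcription start sites was made, and 453 members had a downstream first exon of under 20 bases as assembled, against 82 with so short an upstream one.

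The RNA came from laser-microdissected sensory neurons, whose cell bodies sit in the dorsal root ganglia along the spine. Ganglia of lumbar levels 3, 4 and 5 were taken on the operated side 7 days after surgery, from C57Bl/6 males that the labels call adult and give as 4 to 6 weeks of age. In the crush group the sciatic nerve had been crushed for 10 seconds, and in the sham group it had only been exposed for 10 seconds. Each group had 3 libraries of polyadenylated RNA. No transgene, deletion or drug is named in the labels for either group. Whether replicate libraries came from different animals is not stated in the sources used here, so the p-values reflect the spread of these samples only, and part of that spread may be technical.

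A promoter is the stretch of DNA around a transcription start where RNA polymerase and its initiation factors assemble. A gene with alternative promoters makes transcripts that differ in their first exon, and so can differ in their untranslated leader, in the start of the protein or in the signals that switch them on. In neurons such pairs are known from the neurotrophin Bdnf, where each start answers to its own stimuli, and from ankyrins and plectin, where the first exon sets where the protein goes. Many mammalian promoters lie in CpG islands, where the dinucleotide CpG is not depleted, and promoters of regulated or tissue-specific starts more often lie outside them.

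For 42 members, RefSeq holds 2 annotated starts whose spacing matches that of the assembled pair within 50 bases, and the DNA before 3 of these pairs is shown because their promoter ratios had an unadjusted p under 0.05 between the groups. Each run is the 250 bases that end just before the RefSeq start, on the gene's own strand, from RefSeq on GRCm38.p6. Capitals mark matches, on either strand, to GGGCGG, the GC box bound by Sp factors, to TGACGTCA, the cyclic AMP response element, to TGANTCA, the form bound by AP-1 factors, and to TATAAA, the TATA box, of which no match lay in these windows. The motif GGAAA, the core of sites of NFAT and other factors, was also searched and is left in lower case; its letters can overlap those of a GC box. Rcan1, which encodes a regulator of the phosphatase calcineurin, has its windows on the minus strand at chr16:92466170-92466419 and chr16:92400079-92400328.
Rcan1 upstream: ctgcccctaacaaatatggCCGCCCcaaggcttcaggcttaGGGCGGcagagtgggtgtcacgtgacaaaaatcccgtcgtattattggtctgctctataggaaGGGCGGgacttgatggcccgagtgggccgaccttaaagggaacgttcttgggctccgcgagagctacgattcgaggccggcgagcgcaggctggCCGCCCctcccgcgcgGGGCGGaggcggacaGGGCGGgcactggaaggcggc
Rcan1 downstream: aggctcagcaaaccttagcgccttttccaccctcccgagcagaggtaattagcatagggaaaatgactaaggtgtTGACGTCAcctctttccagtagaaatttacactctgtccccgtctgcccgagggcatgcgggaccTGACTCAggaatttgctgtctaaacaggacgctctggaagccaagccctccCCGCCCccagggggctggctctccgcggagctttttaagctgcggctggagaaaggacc
Rap1gap, which encodes a GTPase-activating protein of Rap1, has its windows on the plus strand at chr4:137707255-137707504 and chr4:137724211-137724460.
Rap1gap upstream: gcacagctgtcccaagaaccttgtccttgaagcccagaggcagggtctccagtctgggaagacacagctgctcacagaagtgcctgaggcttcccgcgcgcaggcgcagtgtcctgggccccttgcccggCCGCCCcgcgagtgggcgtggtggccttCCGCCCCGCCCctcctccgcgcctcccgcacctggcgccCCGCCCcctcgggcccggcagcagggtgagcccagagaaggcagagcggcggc
Rap1gap downstream: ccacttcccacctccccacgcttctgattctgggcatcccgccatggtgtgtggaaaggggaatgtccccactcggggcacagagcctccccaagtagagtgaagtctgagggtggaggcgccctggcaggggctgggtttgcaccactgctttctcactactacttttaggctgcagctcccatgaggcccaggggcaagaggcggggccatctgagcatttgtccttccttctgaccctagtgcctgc
Rnh1, which encodes the cytosolic ribonuclease inhibitor, has its windows on the minus strand at chr7:141172852-141173101 and chr7:141168687-141168936.
Rnh1 upstream: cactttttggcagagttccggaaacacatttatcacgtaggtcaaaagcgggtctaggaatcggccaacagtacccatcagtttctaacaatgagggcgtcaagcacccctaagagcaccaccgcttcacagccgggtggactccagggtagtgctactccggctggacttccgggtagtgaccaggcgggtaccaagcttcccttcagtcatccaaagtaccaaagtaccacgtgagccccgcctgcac
Rnh1 downstream: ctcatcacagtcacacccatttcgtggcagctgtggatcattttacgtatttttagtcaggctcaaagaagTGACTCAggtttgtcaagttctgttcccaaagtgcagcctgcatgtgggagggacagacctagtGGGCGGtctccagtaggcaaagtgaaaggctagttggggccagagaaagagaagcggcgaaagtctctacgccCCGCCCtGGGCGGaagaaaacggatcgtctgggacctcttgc

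The Rcan1 windows differ in these letters. The upstream window holds GGGCGG on both strands and has a CpG observed-to-expected ratio of 0.932. The downstream window has a ratio of 0.556. It holds 1 cyclic AMP response element and 1 AP-1 site by letters, the GGAAA core and a GC box on the reverse strand. In Rap1gap the upstream window is GC-rich (72.8% G or C) with a CpG ratio of 0.610, and the downstream window has a ratio of 0.217, the GGAAA core and no match to the other motifs. In Rnh1 the CpG ratios are 0.637 and 0.573, and the downstream window holds 1 AP-1 site by letters and GC boxes. A match is a string of letters, not a measured binding site. Among all 32851 RefSeq starts in the table, GGGCGG lies in the same window of 32.7%, GGAAA in 55.6%, TATAAA in 12.4%, TGANTCA in 6.75% and TGACGTCA in 1.55%.

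Over all 42 matched pairs the upstream windows were richer in CpG. Their median CpG ratio was 0.721, against 0.440 in the downstream windows and 0.373 in all RefSeq starts. A ratio of at least 0.6 was found in 28 of the 42 upstream windows (66.7%) and in 11 of the 42 downstream windows (26.2%), against 34.0% of all starts. GGGCGG lay in 30 upstream (71.4%) and 24 downstream windows (57.1%). TATAAA lay in 0 upstream and 3 downstream windows (7.14%), and TGANTCA in 2 and 5 (11.9%). In 21 pairs only the upstream window reached 0.6, in 4 only the downstream, in 7 both and in 10 neither. The median upstream share in these classes was 48.6%, 38.3%, 51.0% and 53.5%, in the same order, with quartiles between 25.8% and 71.7%.

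One library stood apart in promoter use before any comparison. Over the 3316 members, the log2 ratio of the 2 promoters correlated at 0.907 to 0.946 between the libraries other than sham 2. Sham 2 correlated at 0.797 to 0.826 with sham 1, sham 3, crush 1 and crush 2, and at 0.895 with crush 3. These values of r are across genes, and genes are not independent replicates. The median upstream share was lowest in sham 2, at 49.8%, beside 54.1% in sham 1 and 54.2% in sham 3. In crush 1 to 3 it was 52.6%, 53.3% and 51.8%. Of the isoforms that define the pairs, 52 were listed at 0 FPKM in sham 2 and 8 to 15 in each of the other libraries. The box plot of promoter use by library shows the wider spread of sham 2. The deposited 95% intervals of the isoforms that define the pairs extended, at the median, 25.9% to 26.8% of the value to either side in every library, and since FPKM keeps no read count the depth was unknown. The labels give no batch for sham 2 or crush 3, and their part in the results is given below as values without them.

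**Figure D1:**
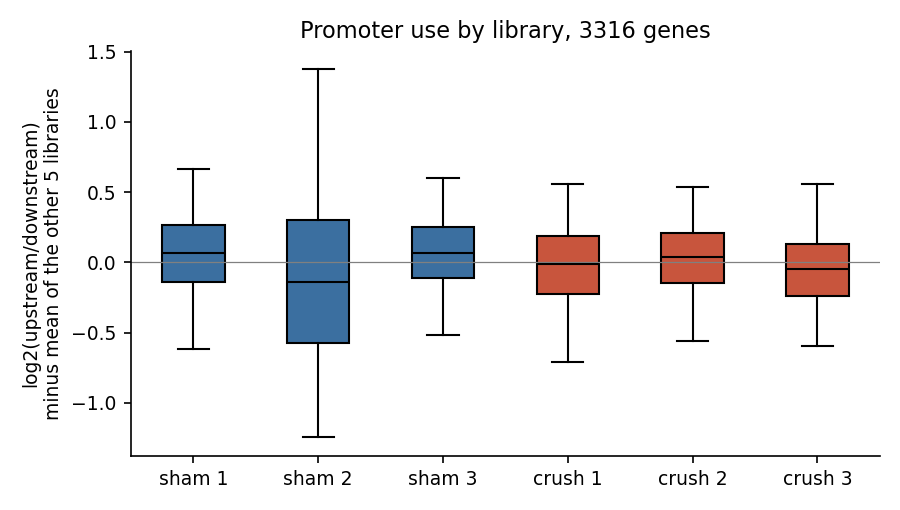
Log2 ratio of upstream to downstream level minus the mean of the other 5 libraries (y axis) for the 3316 members in each of the 6 libraries (x axis). Boxes span the quartiles with the median, whiskers the 5th to the 95th percentile; blue is sham and red crush, and sham 2 has the widest spread.

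Markers of the captured cells were also read. The summed level of 24 sensory neuron markers was 9528 to 11900 FPKM in sham and 9137 to 10292 FPKM in crush. The summed level of 24 Schwann and satellite glia markers was 3174 to 4334 and 3279 to 3581 FPKM, so glial RNA was present in the neuron preparations of both groups. That of 24 macrophage and leukocyte markers was 202 to 233 FPKM in sham and 351 to 378 FPKM in crush, without overlap. That of 21 fibroblast, vessel and blood markers was 407 to 506 and 514 to 575 FPKM. In each list the highest sham sum was that of sham 2, and the other sham sums of the neuron list were 9528 and 9542 FPKM. Sham 2 also had the largest total over all isoforms, 364606 FPKM against 316263 to 338365 in the other libraries, and these sums were not rescaled for it. The lists held 26, 25, 29 and 24 names in this order, and those without a value could not be read. None of the markers with a value was at 0 in all 6 libraries. In such bulk RNA, fewer cells of a type and less RNA per cell cannot be told apart.

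The paired promoters were mostly far apart and mostly fed into the same gene body. The distance between the 5′ ends had a median of 15410 bases, with quartiles of 4558 and 42935 bases and a range of 1003 to 1630098. It exceeded 10000 bases in 2009 members (60.6%) and 100000 in 302, and was under 2000 in 404. The 2 isoforms that define a pair shared exon bases in 3235 members (97.6%), and their 3′ ends lay within 100 bases of each other in 2266 (68.3%). The downstream first exon overlapped an internal or last exon of the upstream isoform in 872 members (26.3%) and lay outside its exons in 2444. The median first exon was 263 bases long upstream and 70 bases downstream. In 2082 members (62.8%) some further isoform matched both promoters or neither and was left out of the share.

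**Figure D2:**
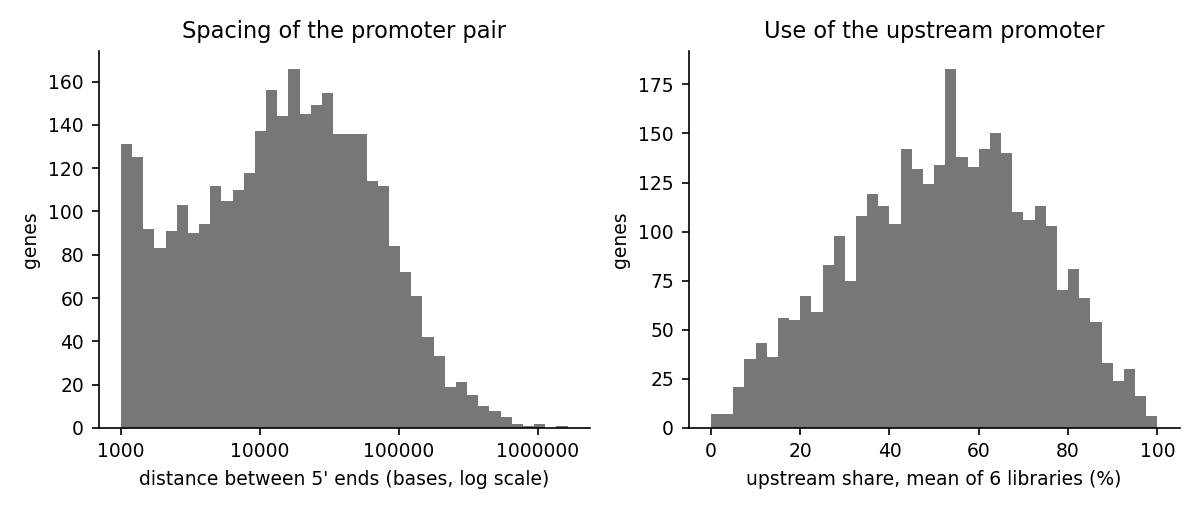
Left, number of member genes (y axis) by distance between their 5′ ends in bases (x axis, log scale), with a median of 15410 bases. Right, number of member genes by mean upstream share in percent (x axis), with a median of 53.0%.

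Annotation covered the upstream starts more often than the downstream ones. The upstream isoform carried a reference identifier in the authors' table in 1846 members (55.7%), the downstream isoform in 289 (8.72%), both in 86 and neither in 1267. The rest are isoforms that the authors' assembly added. In GENCODE, where 3286 members were found by symbol, 266 (8.02%) had 2 annotated starts with the spacing of the assembled pair to within 50 bases, and 600 (18.1%) to within 200 bases. In RefSeq 2657 members were found and 695 had 2 or more starts. Downstream starts were not checked 1 by 1 against annotated starts.

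The 2 promoters were used at levels of the same order in most members, which the rule favours, since both had to reach 2 FPKM. The median upstream share was 53.0%, with quartiles of 36.5% and 67.2%. It was over 80% in 310 members and under 20% in 260. The upstream promoter was the stronger in all 6 libraries in 1330 members and the downstream promoter in 1120, while in 866 the stronger promoter changed between libraries (625 without sham 2). The weaker isoform of the pair had a median mean of 5.66 FPKM.

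Of the 5 most abundant members, 2 had an upstream share outside 20% to 80%. Uchl1, a ubiquitin hydrolase abundant in neurons, had an upstream share of 99.8% ± 0.12 in sham and 99.9% ± 0.03 in crush (mean ± SD of n = 3 libraries a group, here and later), and its downstream first exon also lies in an exon of Apbb2. Tubb3, the neuronal beta-tubulin, had most of the level of its pair assigned to the downstream start as assembled, with an upstream share of 9.27% ± 0.66 and 8.80% ± 0.42. Sncg, gamma-synuclein, had the highest weaker isoform of all members (581.7 FPKM) and a share of 66.8% ± 2.57 and 65.9% ± 1.70. The iron-storage subunit Fth1 had a share of 37.9% ± 6.11 and 32.4% ± 6.07, and the tubulin-binding protein Tppp3 one of 22.8% ± 1.85 and 22.2% ± 1.09. The Fth1 first exons lie in exons of Best1 on the files' map, so their division is uncertain. As assembled, the downstream first exon of Fth1 is 5 bases long and that of Tppp3 19 bases. None of the 5 passed in limma.

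At the edges of the rule, Pdcd10, a scaffold protein of vascular malformation pathways, had a weaker isoform of 2.0006 FPKM and entered, while Unc80, a subunit of the sodium leak channel complex, had one of 1.997 FPKM and did not. Mrpl44, a mitochondrial ribosomal protein, entered with 5′ ends 1003 bases apart. The RNA-binding protein gene Hnrnpa1, with ends 1000 bases apart and a weaker isoform of 7.34 FPKM, stayed out. Left out by name or place were 7 pairs of at least 2 FPKM, 4 of them unnamed loci and 2 spanning more than 1 chromosome or strand.

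The main comparison asked whether crush changed which promoter a gene used. No member passed. The test was limma on log2 of the upstream over the downstream level, with a pseudocount of 1 FPKM on each, over all 4493 pairs of the table whose weaker isoform reached 1 FPKM, with Benjamini-Hochberg adjustment. It called 0 of the 3316 members at an adjusted p under 0.05 (0.0% of all pairs tested), and the smallest adjusted p was 0.999. At an unadjusted p under 0.05 it found 81 members (2.44%), 35 with a higher and 46 with a lower upstream share in crush, against 2.87% of all pairs tested. The shares of the groups did not overlap in 248 members (7.48%), 93 higher and 155 lower, against 7.86% of all pairs. The members' shares are thus close to those of all pairs. With no change in any pair, an unadjusted p under 0.05 has a rate of 0.05. Non-overlap of 3 against 3 libraries then has a rate of 0.10. Neither count of members exceeds these rates. Other tools also called 0 members: limma's diffSplice F test had 97 at an unadjusted p under 0.05 and a smallest adjusted p of 0.154 (Lrrc3b), and limma with library weights had 324 and 0.170. Without sham 2 limma called 0 members with 177 at an unadjusted p under 0.05, and without both sham 2 and crush 3 it called 0 with 209.

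The precision of the ratio test varied between members. The median log2 ratio change over the members was -0.0021 and the median standard error 0.238. The 95% interval of the change had a median half-width of 0.57. It lay wholly within 1 log2 unit either way in 2404 members (72.5%) and reached 1 or more in 912 (27.5%). On this scale, with 1 FPKM added to each level, a change of 1 log2 unit thus lay outside the interval of those 2404 members. The pseudocount alters the changes of low promoters, so these intervals do not bound the change of the ratio without it. The mean upstream share differed by at least 10 points in 167 members and by at least 20 points in 25. In 9 of those 25 the groups did not overlap, which a large difference itself favours. Of these, Chst12, Lrrc3b, Kctd8, Tmem49 and Zfp219 are described below. The other 4, named after their values were seen, were Itpkb (89.2% to 54.5%), Nfe2l2 (68.1% to 99.99%), Uxs1 (78.4% to 47.4%) and Wbscr17 (30.03% to 57.1%). In 6 members every sham library lay on one side of a share of 50% and every crush library on the other. They were Lrrc3b, Chst12, Akap2, Rbfox3 and, named after their values were seen, Arhgap44 and Slc4a4. None of these counts was taken over all pairs tested, and no gene named here passed the ratio test.

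**Figure D3:**
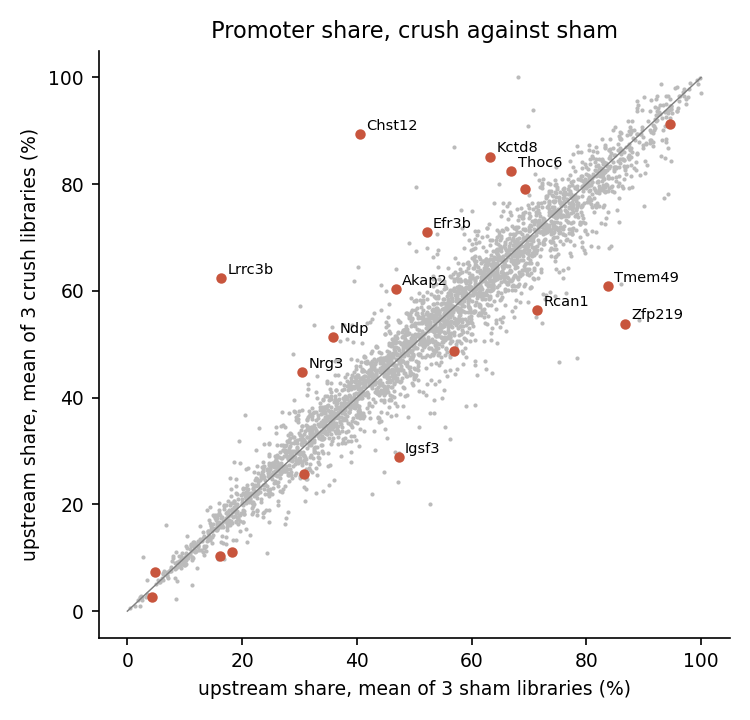
Mean upstream share in the 3 crush libraries (y axis, percent) against that in the 3 sham libraries (x axis, percent) for the 3316 members in grey. The 20 members of smallest p in the ratio test are in red, those that differ by over 10 points are named, and most members lie along the line of equal shares.

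The 20 members of smallest p are described next by role, each as a candidate that did not pass (limma, adjusted p = 0.999 for each). Their unadjusted p ran from 0.0015 to 0.012. In each of them the shares of the 2 groups did not overlap, as the plot of the 20 genes shows. With 1 library left out, none of the 20 log2 ratio changes moved by over 1.5 times, while other settings moved those of Igsf3, Nrg3, Chst12, Zfp219 and Car3 by more, as given with each. Positions are 5′ ends in the mm9 build of the authors' exon file.

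**Figure D4:**
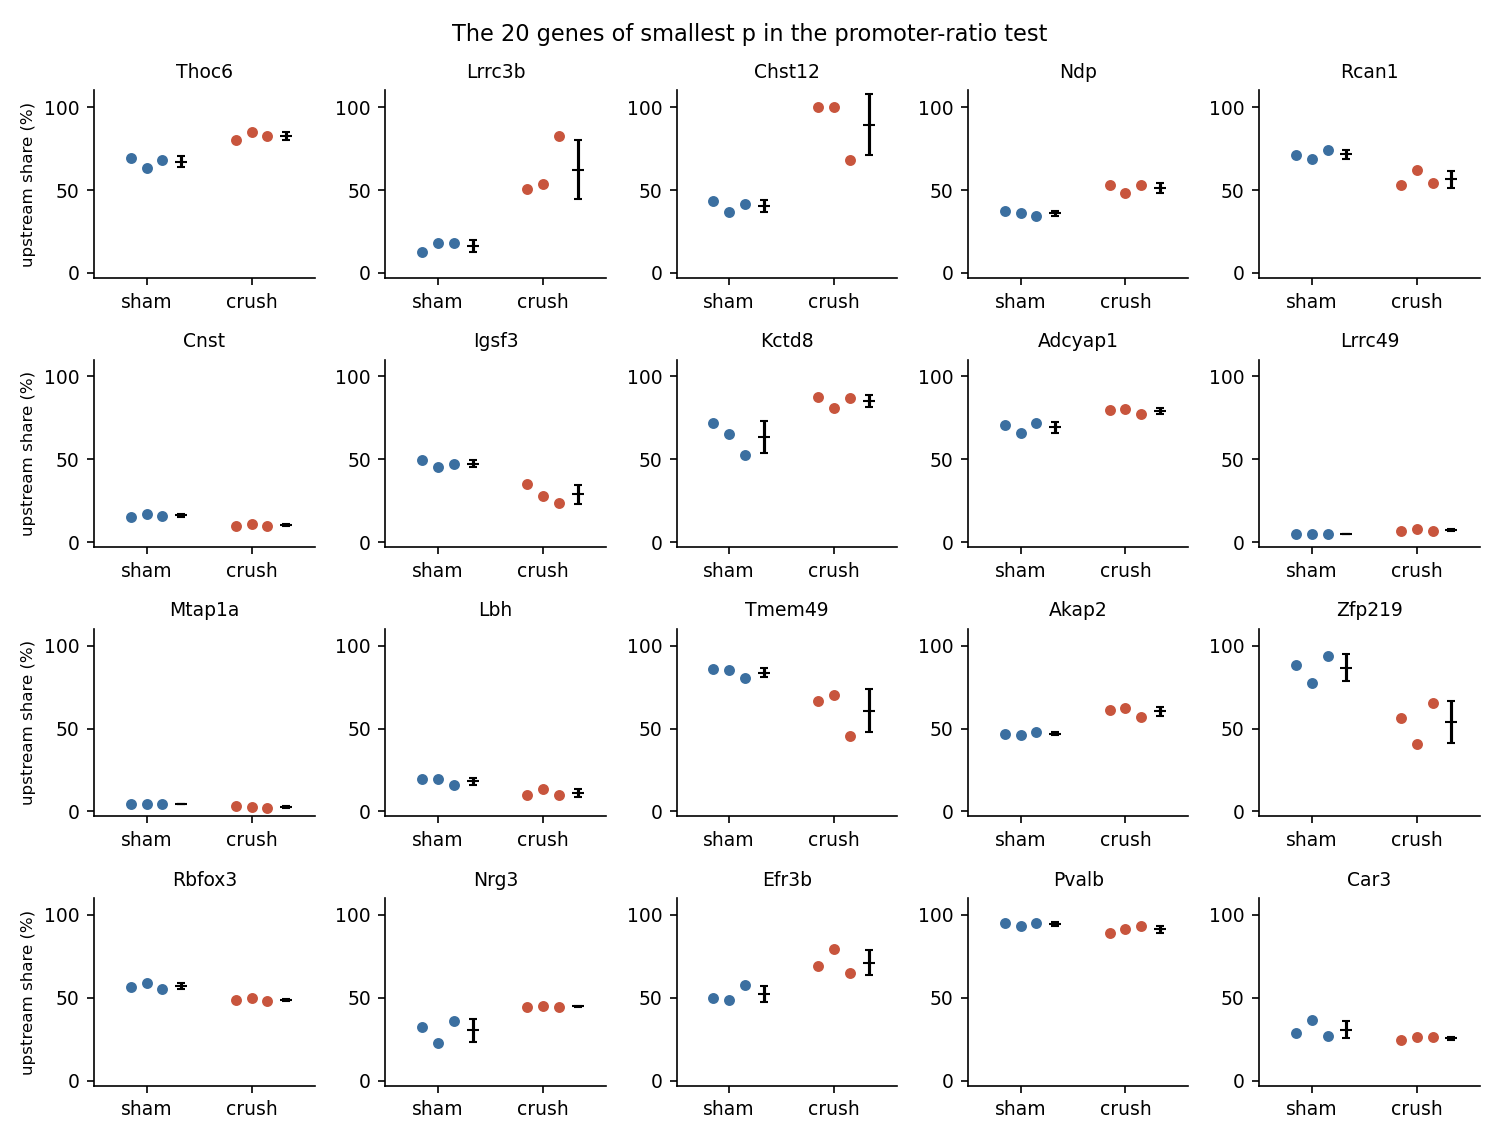
Upstream share in percent (y axis) in each of the 3 sham (blue) and 3 crush libraries (red) for the 20 members of smallest p, with the mean and SD as black bars. The shares of the groups do not overlap in any of the 20, and the largest differences are those of Chst12 and Lrrc3b.

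Signalling genes among the 20 included the pair with the best annotation. Rcan1, on the minus strand of chromosome 16 with starts at 92466465 and 92400349, is known for a downstream promoter that calcineurin and NFAT switch on. Its upstream share was 71.3%, 69.0% and 74.0% in the sham libraries and 52.9%, 62.0% and 54.1% in the crush libraries, each in the order 1 to 3, as in all such lists. Every crush library lay below every sham library. Upstream levels were 20.3, 23.5 and 18.9 FPKM in sham and 17.0, 18.4 and 18.7 FPKM in crush. The downstream level, from the start whose window holds the cyclic AMP and AP-1 letters, was 8.13, 10.6 and 6.64 FPKM in sham and 15.1, 11.3 and 15.8 FPKM in crush. The log2 ratio change was -0.88, with a 95% interval of -1.34 to -0.42. Neither promoter passed alone, with adjusted p = 0.491 upstream and 0.206 downstream, and the gene's summed level had a log2 change of 0.11. Among the 120 pairs in which both isoforms carry a reference identifier, limma gave Rcan1 an adjusted p = 0.0895, the smallest of the 86 members there and also above the threshold.

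Ligands and their relatives were the next group. Adcyap1, which encodes the neuropeptide PACAP, has starts 1034 bases apart on chromosome 17 at 93600672 and 93601706. Its upstream share was 70.4%, 65.7% and 71.9% in sham and 79.9%, 80.3% and 77.0% in crush (log2 ratio change 0.73, interval 0.32 to 1.13). The upstream level was 21.9, 25.1 and 20.1 FPKM in sham and 37.7, 38.5 and 52.1 FPKM in crush, while the downstream level was 9.21, 13.1 and 7.84 and then 9.48, 9.44 and 15.5 FPKM. The groups thus overlapped downstream and not upstream. The summed gene rose (log2 change 0.81, limma adjusted p = 0.0248). Ndp encodes norrin, a secreted ligand of a Frizzled receptor, from starts 19851 bases apart on the X chromosome. Its share was 37.2%, 35.9% and 34.6% in sham and 52.9%, 48.0% and 53.3% in crush (0.75, interval 0.36 to 1.13), with 3.04 to 3.50 FPKM upstream in sham and 4.63 to 5.61 in crush. Nrg3, a neuregulin, had a share of 32.4%, 22.8% and 36.1% in sham and 44.5%, 45.3% and 44.5% in crush (0.78, interval 0.25 to 1.304). Its 2 isoforms shared 0 exon bases, and from these isoforms alone the change was 2.08.

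Membrane proteins gave the largest shift with both promoters moving. Lrrc3b, a leucine-rich repeat protein of the plasma membrane, lies on the minus strand of chromosome 14 with starts at 16268935 and 16243769. Its upstream share was 12.4%, 18.3% and 18.3% in sham and 50.7%, 53.9% and 82.5% in crush. Upstream it was at 0.967, 1.45 and 1.45 FPKM in sham and 2.11, 2.70 and 5.93 FPKM in crush. Downstream it was at 6.84, 6.47 and 6.46 FPKM in sham and 2.06, 2.31 and 1.26 FPKM in crush. Groups did not overlap at either start. Upstream, every sham library was under 2 FPKM, so that start met the rule through crush, and the downstream start met it through sham. The ratio change was 2.34, with an interval of 1.27 to 3.41, and 1.83 without crush 3. The downstream promoter fell when tested alone (log2 change -1.42, limma adjusted p = 0.028), the upstream one did not pass (0.92, adjusted p = 0.272), and both together gave 7.81, 7.93 and 7.91 FPKM in sham and 4.17, 5.01 and 7.19 FPKM in crush. The gene's total, which includes 4 isoforms that matched both promoters or neither, was 10.6 ± 0.022 and 10.7 ± 0.94 FPKM.

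Igsf3, an immunoglobulin-domain membrane protein, had a share of 49.4%, 45.3% and 47.2% in sham and 34.9%, 28.0% and 23.6% in crush (log2 ratio change -0.85, interval -1.31 to -0.38). From the 2 isoforms that define the pair alone, or from isoforms of at least 2 FPKM, its change was -0.33 and did not reach an unadjusted p under 0.05. Its downstream first exon overlaps an exon of the upstream isoform, as do those of Cnst, Lrrc49, Tmem49 and Thoc6. Kctd8, an auxiliary subunit of GABA-B receptors, had a share of 71.7%, 65.3% and 52.7% in sham and 87.6%, 80.7% and 87.2% in crush (1.36, interval 0.61 to 2.11). The upstream level was alike in all 6 libraries, at 10.9 to 12.5 FPKM, and the downstream level was 4.62, 6.66 and 9.81 FPKM in sham and 1.5998, 2.60 and 1.79 FPKM in crush. The Kctd8 downstream first exon is 4 bases long as assembled. Cnst, a protein of connexin trafficking, had a share of 15.1%, 17.3% and 15.9% in sham and 9.85%, 11.01% and 9.98% in crush (-0.67, interval -1.04 to -0.30). Efr3b, a plasma membrane anchor of a lipid kinase, had 50.1%, 48.8% and 57.7% in sham and 69.2%, 79.4% and 64.7% in crush (0.85, interval 0.26 to 1.44). In both the 2 groups lay apart in share, and neither gene passed as a whole.

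Among enzymes, Chst12, a sulfotransferase of chondroitin sulfate, had the largest change. Its starts lie 1187 bases apart on the plus strand of chromosome 5. The upstream share was 43.3%, 36.6% and 41.8% in sham and 99.9%, 99.99% and 68.4% in crush. Upstream levels were 5.36, 7.18 and 5.39 FPKM in sham and 4.98, 4.08 and 5.25 FPKM in crush. The downstream level was 7.01, 12.4 and 7.49 FPKM in sham, 0.00325 and 0.000467 FPKM in crush 1 and crush 2, and 2.43 FPKM in crush 3. Crush 1 and crush 2 were thus near 0 downstream, and this start met the rule through sham. Both promoters together gave 12.4, 19.6 and 12.9 FPKM in sham and 4.98, 4.08 and 7.67 FPKM in crush. The gene's total, 39.7 ± 6.84 and 34.1 ± 1.08 FPKM, is mostly made of 3 isoforms that matched both promoters or neither and are outside the share. The ratio change was 2.42, with an interval of 1.31 to 3.52, and 4.57 with a pseudocount of 0.1 FPKM.

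Car3, a carbonic anhydrase, differed from the other candidates in that both promoters rose. Its upstream start gave 1.49, 1.76 and 1.49 FPKM in sham and 9.94, 7.79 and 11.9 FPKM in crush, and the downstream level 3.63, 3.07 and 4.01 and then 30.5, 22.1 and 33.3 FPKM. Upstream, every sham library was under 2 FPKM, so that start met the rule through crush. Each promoter passed (limma, adjusted p = 0.0229 for both). The upstream share was 29.0%, 36.5% and 27.0% in sham and 24.6%, 26.1% and 26.3% in crush, a ratio change of -0.62 with an interval of -1.05 to -0.19, and of -0.40 with a pseudocount of 0.1 FPKM. With that smaller pseudocount the unadjusted p was 0.107 in limma, and on the arcsine square root of the share it was 0.148. The crush shares lay just below the lowest sham share.

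Cytoskeletal and neuron-specific genes shifted by fewer points. Mtap1a, the microtubule-associated protein MAP1A, had almost all of its level assigned to its downstream start as assembled, with an upstream share of 4.51%, 4.40% and 4.23% in sham and 3.08%, 2.64% and 2.32% in crush (log2 ratio change -0.62, interval -1.001 to -0.24). Upstream levels were 8.46 to 10.4 FPKM in sham and 4.09 to 6.04 FPKM in crush. The downstream level was 184 to 220 FPKM in sham and 172 to 190 FPKM in crush, and those ranges overlap. GENCODE holds 2 starts of the same spacing for this gene. Lrrc49, another leucine-rich repeat gene, had a share of 5.06%, 4.79% and 4.76% in sham and 6.83%, 8.14% and 6.92% in crush (0.63, interval 0.25 to 1.01). Here the downstream level fell from 97.5 ± 3.02 to 57.6 ± 4.28 FPKM (limma, adjusted p = 0.028) and the upstream level was 4.99 ± 0.075 and 4.52 ± 0.28 FPKM.

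Rbfox3 encodes the splicing factor known as the neuronal antigen NeuN, and its starts lie 337538 bases apart on chromosome 11. Its share was 56.5%, 59.1% and 55.3% in sham and 48.6%, 49.6% and 48.2% in crush (-0.46, interval -0.77 to -0.15). The upstream level was 36.4, 34.1 and 31.3 FPKM in sham and 20.9, 23.7 and 21.0 FPKM in crush, and the downstream level 23.6 to 28.1 and 22.1 to 24.0 FPKM. Upstream the groups lay apart and downstream they overlapped, with adjusted p = 0.0519 for the upstream promoter alone (limma). Pvalb encodes parvalbumin of proprioceptive neurons. Its share was 95.3%, 93.2% and 95.3% in sham and 89.2%, 91.5% and 93.1% in crush (-0.85, interval -1.44 to -0.26), while its upstream level was 112, 151 and 137 FPKM and then 47.8, 29.2 and 65.3 FPKM. The upstream first exon of Pvalb is 2 bases long as assembled.

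Regulators of transcription, RNA and autophagy completed the 20. Lbh, a transcriptional cofactor, had a share of 19.6%, 19.3% and 15.9% in sham and 9.70%, 13.7% and 9.78% in crush (log2 ratio change -0.81, interval -1.31 to -0.30). Its downstream level rose from 21.1 ± 0.57 to 34.8 ± 3.98 FPKM (limma, adjusted p = 0.0473), with 4.72 ± 0.56 and 4.28 ± 0.61 FPKM upstream. Zfp219, a zinc-finger protein, had 88.5%, 77.7% and 93.9% in sham and 56.1%, 40.5% and 65.1% in crush (-1.44, interval -2.35 to -0.52). That change was -2.38 with a pseudocount of 0.1 FPKM and -0.83 in the setting that set the distance limit at 5000 bases. The reported Zfp219 starts, at 52639496 and 52634138, already met that limit. In the reported fit the downstream level was 1.06, 1.17 and 0.15 FPKM in sham and 4.27, 4.78 and 3.62 FPKM in crush, without overlap. That start thus met the rule through crush. Thoc6, a subunit of the THO complex of messenger RNA export, had the smallest p. Its share was 69.3%, 63.2% and 68.3% in sham and 80.002%, 85.0% and 82.4% in crush (0.97, interval 0.53 to 1.41). Its downstream first exon lies in exons of the neighbouring Hcfc1r1, so its level is uncertain.

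Tmem49, the autophagy protein VMP1, had a share of 85.8%, 85.1% and 80.3% in sham and 66.8%, 70.0% and 45.7% in crush (-1.46, interval -2.37 to -0.55). Upstream its levels overlapped, at 14.2 to 19.0 and 12.6 to 20.6 FPKM, and downstream they did not, at 2.49 to 4.54 FPKM in sham and 8.17 to 14.9 FPKM in crush. Akap2, an anchor of protein kinase A, had 46.9%, 45.8% and 47.7% in sham and 61.4%, 62.5% and 57.0% in crush (0.61, interval 0.22 to 0.9994). Here the downstream levels overlapped, at 2.66 to 3.71 and 2.77 to 3.18 FPKM, and the upstream levels did not, at 2.25 to 3.28 and 4.03 to 5.05 FPKM.

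The other matched RefSeq pairs of small p, named after their values were seen, had shifts of the same sign as Rcan1. Rnh1 had an upstream share of 19.1%, 18.2% and 18.2% in sham and 15.4%, 12.5% and 12.2% in crush (log2 ratio change -0.56, interval -0.96 to -0.17). The downstream level was 43.0 ± 9.39 FPKM in sham and 66.8 ± 6.55 FPKM in crush, and the upstream level 9.74 ± 1.96 and 10.2 ± 0.95 FPKM. Rap1gap had a share of 83.0% ± 1.8 in sham and 75.7% ± 3.5 in crush (-0.60, interval -1.06 to -0.15), with 30.4 and 21.9 FPKM upstream and 6.24 and 7.09 FPKM downstream. In both, the limma adjusted p = 0.999. The other 39 of the 42 had an unadjusted p of at least 0.0846, and in the 42 pairs the median change was -0.09, against 0.0009 over all pairs tested.

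Genes known for alternative promoters from general knowledge gave 67 members of a list of 136. Of these 0 passed, and 3 had an unadjusted p under 0.05 in limma: Rap1gap, Atf3 and the potassium channel subunit Kcnab2 (50.1% ± 1.8 to 45.3% ± 1.6), all with a lower upstream share in crush. The median log2 ratio change was 0.05 and the median share 47.6%. The other genes of that list named here were chosen after their values were seen. The neurotrophin Bdnf had an upstream share of 29.2% ± 11.7 in sham and 37.3% ± 3.4 in crush (log2 ratio change 0.43, interval -0.40 to 1.26). Its receptor Ntrk2 had 24.4% ± 4.3 and 26.4% ± 5.4 (0.12, interval -0.46 to 0.70). The receptor tyrosine kinase Ret had 42.9% ± 8.0 and 43.9% ± 3.0, and the growth factor genes Fgf12 and Fgf13 had 49.5% to 48.9% and 92.2% to 95.9%. None of these trophic genes passed.

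Synaptic and cytoskeletal members of that list did not pass either. The presynaptic adhesion molecule Nrxn2 had an upstream share of 10.2% ± 0.56 in sham and 12.2% ± 1.8 in crush, and Nrxn3 one of 40.8% ± 6.3 and 45.0% ± 2.7. Gnas, the stimulatory G protein alpha subunit, had 23.3% ± 3.0 and 25.5% ± 1.1, with 866 and 807 FPKM from the downstream start. Prkar1b, a regulatory subunit of protein kinase A and a matched RefSeq pair, had 35.0% ± 2.9 and 34.6% ± 5.5 (interval of the log2 ratio change -0.51 to 0.45). As assembled, the downstream first exon of Prkar1b is 5 bases long and the upstream one of Dst 4 bases. Among cytoskeletal linkers, the share of Ank3 was 21.8% ± 5.4 and 22.0% ± 2.5, that of Plec 12.0% ± 0.57 and 11.3% ± 2.5, that of Dst 60.6% ± 2.9 and 65.4% ± 0.27 and that of Macf1 72.2% ± 3.4 and 80.2% ± 5.1. Rtn4, which encodes the Nogo proteins, had 50.5% ± 3.4 and 56.9% ± 5.8 (0.36, interval -0.14 to 0.86). The interval of Prkar1b leaves room for moderate shifts in either direction, and that of Rtn4 mostly for a higher upstream share in crush.

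The second comparison asked which single promoters of the members changed. Tested as log2(FPKM + 1) with limma over 16782 features of the table, 51 of the 6632 member promoters passed, 42 higher and 9 lower in crush. Over all features 0.81% passed, 0.632% higher and 0.179% lower. Upstream, 21 rose and 2 fell, and downstream 21 rose and 7 fell. Some that rose, such as the upstream promoters of Itpr1, Lmo7 and C1qb, averaged under 2 FPKM in sham and met the rule through crush. Lrrc3b downstream, which fell, met it through sham. They belong to 44 genes, of which 8 had an unadjusted p under 0.05 in the ratio test. In 37 of the 44 genes 1 promoter passed and the other did not, and in 2 of these, Lrrc3b and Lbh, the other had a change of opposite sign. A call at 1 promoter only does not show that the promoters differ, and the ratio test called none of these genes.

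**Figure D5:**
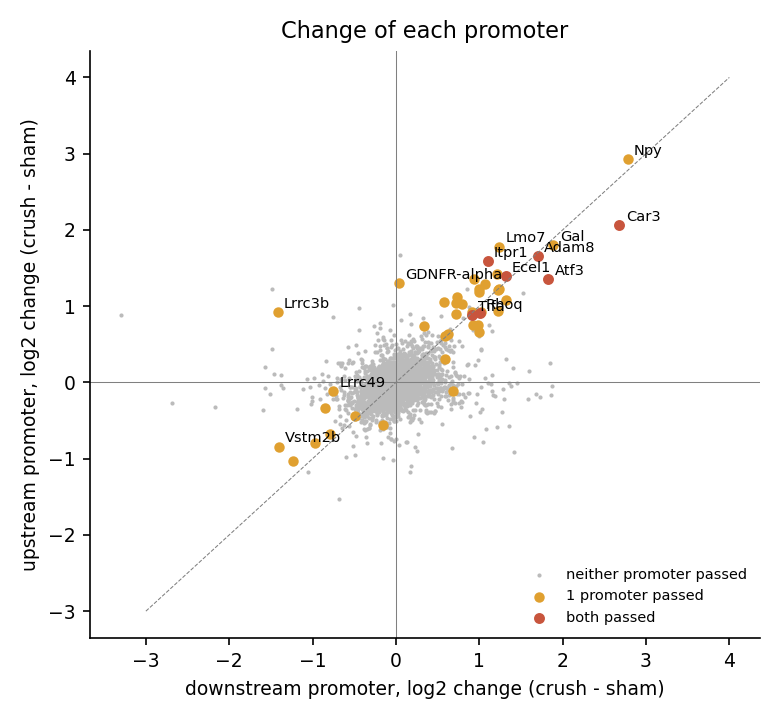
Log2 change, crush minus sham, on the log2(FPKM + 1) scale, of the upstream promoter (y axis) against that of the downstream promoter (x axis) for the 3316 members. Grey points are genes in which neither promoter passed, orange points the 37 with 1 promoter that passed, red points the 7 with both, and the dashed line marks equal change; Lrrc3b lies apart from the line.

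Both promoters rose in 7 genes, named after their values were seen: Car3, Atf3, Itpr1, Rhoq, Adam8, Ecel1 and Tifa. Atf3, a stress-induced transcription factor of injured neurons, rose from 8.17 ± 1.84 to 22.2 ± 3.00 FPKM upstream and from 42.4 ± 12.6 to 149 ± 19.8 FPKM downstream (limma, adjusted p = 0.043 and 0.034). Its upstream share was 16.4% ± 1.5 in sham and 13.0% ± 1.3 in crush, with an unadjusted p = 0.027 for the ratio in limma. Itpr1, a calcium release channel of the endoplasmic reticulum, rose from 1.40 ± 0.24 to 6.28 ± 1.14 FPKM upstream and from 2.27 ± 0.34 to 5.99 ± 0.20 FPKM downstream. Adam8, a membrane metalloprotease, rose from 1.99 ± 0.50 to 8.38 ± 1.31 and from 2.29 ± 0.28 to 10.0 ± 3.42 FPKM, and its share was 46.1% ± 5.2 and 46.3% ± 5.1. Rhoq, a small GTPase, rose from 21.7 ± 1.61 to 41.9 ± 6.13 and from 26.4 ± 3.36 to 53.7 ± 2.99 FPKM. The peptidase Ecel1 and the TRAF-binding adaptor Tifa rose likewise at both starts.

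Among the 44 members of the nerve injury list, 3 upstream and 8 downstream promoters passed, where 0.81% of all features tested passed. The list was chosen with earlier results of these data known, so these counts are not an independent result. The growth-cone protein Gap43 was at 170 ± 41.4 in sham and 320.4 ± 51.4 FPKM in crush upstream (adjusted p = 0.115) and rose from 104 ± 6.78 to 197 ± 18.8 FPKM downstream (limma, adjusted p = 0.028), and its share was 61.6% ± 6.6 and 61.8% ± 1.5. The neuropeptide galanin, Gal, was at 33.3 ± 12.2 and 117 ± 32.6 FPKM upstream (adjusted p = 0.064) and rose from 30.1 ± 7.73 to 114 ± 25.1 FPKM downstream (limma, adjusted p = 0.032). Its share was 52.0% ± 2.6 and 50.5% ± 2.5. Npy rose upstream from 5.24 ± 1.57 to 46.7 ± 14.6 FPKM (limma, adjusted p = 0.023), with 0.923 ± 0.945 and 14.5 ± 13.2 FPKM downstream, where the first exon is 4 bases long. Cacna2d1, the calcium channel subunit bound by gabapentin, was at 16.2 ± 4.77 and 38.2 ± 1.11 FPKM upstream and rose downstream from 26.5 ± 2.90 to 53.8 ± 2.29 FPKM. From the cytoskeleton list, the junction protein gene Lmo7 rose upstream from 0.973 ± 0.34 to 5.75 ± 0.92 FPKM and was at 1.71 ± 0.26 and 5.51 ± 1.69 FPKM downstream. These 5 genes were chosen after their values were seen, and each passed at 1 start. As assembled, the upstream first exon of Gap43 is 10 bases long.

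Falls of a single promoter were 9 in number, and those genes too were named after their values were seen. Downstream, besides Lrrc3b and Lrrc49, the synaptic secreted protein gene Lgi3 fell from 53.2 ± 4.17 to 26.7 ± 1.78 FPKM and the leak channel Kcnk1 from 26.4 ± 1.4999 to 14.98 ± 1.93 FPKM. The single-strand DNA-binding protein Rpa1 fell downstream from 8.99 ± 0.21 to 4.55 ± 0.58 FPKM and was at 13.3 ± 0.23 and 10.4 ± 0.85 FPKM upstream, a share of 59.6% and 69.5%, but its upstream first exon also lies in an exon of Smyd4. Vstm2b and the aspartate acetyltransferase Nat8l completed the downstream falls, and Hs3st2 and D4Bwg0951e were the 2 upstream ones. As assembled, the upstream first exon of Lgi3 is 1 base long and the downstream one of D4Bwg0951e 6 bases.

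Macrophage genes were among the promoters that rose, beside the rise in the summed macrophage markers given above. Csf1r, the receptor of macrophage colony-stimulating factor, rose upstream from 3.51 ± 0.16 to 8.32 ± 0.56 FPKM, and the complement subunit C1qb from 1.51 ± 0.040 to 3.23 ± 0.15 FPKM. Lysozyme, Lyz2, rose downstream from 9.77 ± 0.79 to 19.4 ± 0.60 FPKM. Their upstream shares were 71.9% and 74.1%, 22.5% and 22.0%, and 61.8% and 58.4%. As assembled, the upstream first exon of Lyz2 is 9 bases long. The part of macrophage RNA in the other results was not tested.

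The calls of single promoters depended on which libraries were tested. Without sham 1, sham 3, crush 1 or crush 3 limma called 0 member promoters, without crush 2 it called 1, and without sham 2 it called 154, 92 higher and 62 lower, which include 49 of the 51. Without both sham 2 and crush 3 it called 144, 84 higher and 60 lower, so the balance of directions also depended on the libraries. All 51 kept their sign in each of these fits.

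For whole genes, 153 of the 3316 members passed, 89 higher and 64 lower in crush (limma, over 12289 genes). Over all genes 3.78% passed, 2.38% higher and 1.39% lower. Of the 89 that rose, 87 had a positive change at both promoters, and of the 64 that fell, 60 had a negative change at both. A gene's total contains both promoter levels, so this agreement in sign is largely built in. Of the 153, 10 had an unadjusted p under 0.05 in the ratio test. Without sham 1, 2 and 3 and crush 1, 2 and 3 the genes called numbered 40, 392, 28, 18, 32 and 33. More fell than rose without sham 2 (173 higher and 219 lower) and without both sham 2 and crush 3 (252 and 344), while 35 rose and 5 fell without sham 1.

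No functional list held a member whose promoter ratio passed in limma, 0 in each of 16 lists. At an unadjusted p under 0.05 stood 2.87% of all pairs tested and 2.44% of the members. There were 3 of 44 members in nerve injury and regeneration (Adcyap1, Atf3 and Ngfr), 4 of 89 in cytoskeleton and transport (Evl, Klc1, Lmo7 and Mtap1a) and 2 of 75 in channels and transporters (Accn1 and Kcnab2). Adhesion, guidance and surface receptors had 4 of 71 (Adcyap1, Clstn1, Ngfr and Nrg3), metabolism and mitochondria 4 of 101 (Car3, Ckb, Mtch1 and Nadk) and GTPase and second messenger regulators 3 of 69 (Arhgap44, Rap1gap and Rcan1). There was 1 each among 94 vesicle and synapse genes (Exoc4, an exocyst subunit, 60.0% to 74.9%), 104 kinases and phosphatases (Mapk8ip1, a scaffold of JNK kinases, 33.1% to 39.99%), 64 transcription and chromatin genes (Atf3), 74 RNA-binding and translation genes (Rbfox3) and 96 ubiquitin, proteolysis and chaperone genes (Uchl1). Sensory neuron markers had 2 of 21 (Pvalb and Uchl1). Schwann and satellite glia (7 members), macrophage (3) and fibroblast, vessel and blood markers (4) had 0. Their members of smallest p were the lipid-binding protein gene Fabp7 (19.4% to 17.5%), Csf1r and the collagen gene Col1a2 (75.1% to 67.0%). As assembled, the downstream first exon of Col1a2 is 1 base long. The median log2 ratio change lay between -0.17 in macrophage markers and 0.09 in sensory neuron markers, against -0.0021 over all members.

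Whole-gene calls in these lists were as follows. Nerve injury and regeneration had 14 members that rose and 1 that fell of 44, with a median ratio change of 0.07. Adhesion and surface receptors had 9 that rose and 3 that fell of 71, and channels and transporters 3 that rose and 8 that fell of 75, the acid-sensing channel Accn1 (share 40.6% ± 2.5 and 34.1% ± 1.3) not among them. RNA-binding and translation genes had 0 of 74 in either direction. Over all genes tested 2.38% were higher and 1.39% lower. Differences between lists were not tested, and these calls depended on the libraries as given above. The lists were also chosen with earlier results of these data known.

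Members of small p were found among pairs of every architecture. At an unadjusted p under 0.05 were 3.46% of pairs with a distance of 1000 to 2000 bases, 2.30% at 2000 to 5000, 2.51% at 5000 to 20000, 2.11% at 20000 to 100000 and 2.32% beyond. Where the downstream first exon lay outside the exons of the upstream isoform the share was 2.70%, and where it lay inside, 1.72%. It was 2.63% in the 266 members with a GENCODE pair and 2.43% in the others. In the 42 RefSeq pairs it was 7.14%, which is 3 genes. The differences between these classes were not tested.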

How the data were processed

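Polyadenylated RNA of 3 sham and 3 crush samples, grouped by the labels, was analysed from the deposited isoform table, in which the authors give FPKM per isoform and library with an interval. TopHat 1.3.2, Cufflinks 1.1.0, Cuffdiff 1.2.1 and the build mm9 are named in the submitters' processing notes. Whether libraries kept strand is not given in the sources used here. Positions came from the authors' exon file. The suffix that numbers isoforms was removed from gene names. The isoform pair with the largest smaller mean defined the 2 promoters of a gene, and other isoforms joined a promoter if their first exon overlapped its own or their 5′ end lay within 1000 bases. An isoform that matched both promoters or neither joined none.

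Promoter ratios, promoter levels and gene levels were tested with limma 3.58.1 (R 4.3.3) on log2(FPKM + 1), 2-sided, with a variance trend and Benjamini-Hochberg adjustment over the whole table at 0.05. The fits were tested on simulated data. FPKM is divided among overlapping isoforms by a model, so the levels of 2 promoters of a gene are not independent. A pseudocount shrinks level changes of low promoters, and it can enlarge a ratio change, as in Car3. An exact permutation test of 3 against 3 cannot go below p = 0.10 and was not used. Members and lists were chosen with earlier results of these data known. Named are the 20 members of smallest ratio p, the 5 most abundant, each list's member of smallest p and those at the rule's limits; all other genes were chosen after their values were seen. RefSeq starts (GRCm38.p6) and GENCODE vM21 (GRCm38) were matched by symbol and spacing, without converting coordinates. Python 3.11.15 was used with pandas 2.3.3 for tables, numpy 2.4.6 for arithmetic and matplotlib 3.10.9 for figures. Alternatives changed the pseudocount, filters, scaling, pair definition, tool and libraries.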

Additional observations from a re-analysis of the deposited data

How the results depend on the processing

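The ratio test called 0 members under every alternative run. Members at an unadjusted p under 0.05, 81 in the reported fit, numbered 47 with a weaker isoform of at least 5 FPKM, 7 among pairs with reference identifiers at both starts, 324 with library weights, 209 without both sham 2 and crush 3 (an alternative chosen after seeing the data) and 53 to 177 with 1 library left out. Member promoters called, 51 as reported, numbered 0 with the replicate block, 144 without both sham 2 and crush 3 and 0 to 154 with 1 library left out; those lower numbered 5 in place of 9 with a pseudocount of 0.1 FPKM. Member genes called, 153 as reported, numbered 17 with the replicate block, 596 without both of those libraries and 18 to 392 with 1 left out. With upper-quartile scaling of the libraries 158 member genes were called, 107 higher and 51 lower, and 67 member promoters. The replicate block gave 55 members at an unadjusted p under 0.05 in the ratio test. Same-numbered libraries deviated from their group means with r = 0.305, -0.215 and -0.440, so the replicate numbers were not taken as pairing the samples. None of the 20 named ratio changes reversed sign under the alternatives run, but 5 moved by over 1.5 times: Igsf3 from -0.85 to -0.33, Nrg3 from 0.78 to 2.08, Chst12 from 2.42 to 4.57, Zfp219 from -1.44 to between -2.38 and -0.83, and Car3 from -0.62 to -0.40. Over these alternatives the lowest adjusted p among members was 0.0895 (Rcan1, reference pairs). With 3 libraries a group and unknown depth, the adjusted test also left changes as large as that of Chst12 (2.42) short of the threshold.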
